A study of Mus musculus with 12 samples.

Results

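The comparison described here set RAW 264.7 cells given TsSP together with lipopolysaccharide (LPS) against cells of the same line given LPS alone. It used the 3 arrays of each of these groups, 6 of the 12 arrays in the series, taken by the treatment that their labels state. RAW 264.7 is an established mouse macrophage line, and LPS, from the outer membrane of Gram-negative bacteria, activates such cells through Toll-like receptor signalling. The TsSP+LPS cells received TsSP at 50 µg/mL and LPS at 500 ng/mL, and the LPS cells received LPS at 500 ng/mL. Both were cultured for 6 hours at 37°C in 5% CO2. TsSP is spelled as in the labels, and the submitters describe the study as one on products of helminths, parasitic worms. The remaining 6 arrays carried inulin, a plant fructan, at 500 µg/mL, in 3 cases with TsSP and LPS and in 3 with LPS. Every array came from LPS-treated cells of 1 cell line, so the changes below are changes within LPS-stimulated RAW 264.7 cells. Whether the 3 arrays within a group stand for 3 cultures is not stated by the labels. The p-values therefore measure the spread among these samples alone, and that spread may be technical.

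A macrophage reads its surroundings through surface receptors. Many cytokine receptors signal through JAK kinases and STAT proteins, and G-protein-coupled receptors through G proteins and cyclic nucleotides. Growth factor and Toll-like receptors signal through kinase cascades and small GTPases. These pathways end on transcription factors, which set the next wave of genes, and transporters supply the nutrients, ions and lipids that an activated cell uses. The receptor, signalling, transcription factor, chromatin enzyme and transporter genes on the array were followed family by family, 495, 867, 935, 120 and 752 genes in that order. The families and their members were chosen with earlier results of these data known, so their shares of called genes are descriptions.

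Signals are given on a log2 scale, on which a difference of 1 is a 2-fold change. A gene was called when the adjusted p of its difference, from limma with Benjamini-Hochberg adjustment over 19505 genes, was under 0.05, and "rose" and "fell" are used of called genes. Of all genes, 18.1% were called, 11.0% higher and 7.08% lower in TsSP+LPS cells, and the arrays of the 2 groups did not overlap in 32.7%. A gene was taken as bright when its mean over the 12 arrays exceeded the mean background level, the brightest of 23 background probes on an array, which held for 8944 genes. Among bright genes 21.2% were higher and 13.2% lower, with a median log2 difference of 0.11, or 0.018 after quantile normalization. Median signals over all probe sets were 5.258 to 5.300 on the TsSP+LPS arrays and 5.163 to 5.277 on the LPS arrays, the lowest being that of LPS replicate 1. Of 10 macrophage markers measured, 10 lay above background in both groups, of which Lyz2 and Itgam were called higher and Adgre1 lower. Of 6 T cell, 4 B cell, 4 natural killer cell, 5 neutrophil, 4 mast cell, 4 fibroblast, 5 epithelial and 4 endothelial markers, 4 were above background on every array of a group, namely Cd5, Dcn, Cdh5 and Pecam1. Cd5, Dcn and Pecam1 were so in both groups and Cdh5, an endothelial cadherin gene that was called lower, in LPS cells only. The fibroblast marker Col3a1, below background in both groups, was called lower, and no erythroid marker was measured. In RNA from whole cultures, fewer cells that express a gene and less RNA per cell cannot be told apart.

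The receptor families moved in both directions. Over all 495 receptor genes, 67 rose and 40 fell, which among the 171 bright ones came to 34.5% and 20.5%, against 21.2% and 13.2% of all bright genes. Their median log2 difference was 0.20 over the bright members. Transporters had a like share of rises, 34.3%, and 12.5% that fell. Signalling genes stood at 27.0% and 15.7%, transcription factors at 17.4% and 14.2%, and chromatin enzymes at 16.5% and 16.5%. Differences of over 2-fold on the measured scale were found for 32 rises and 22 falls among the 171 bright receptors, and for 35 rises and 16 falls among the 265 bright transporters. Over all 8944 bright genes there were 589 such rises and 402 such falls.

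**Figure D1:**
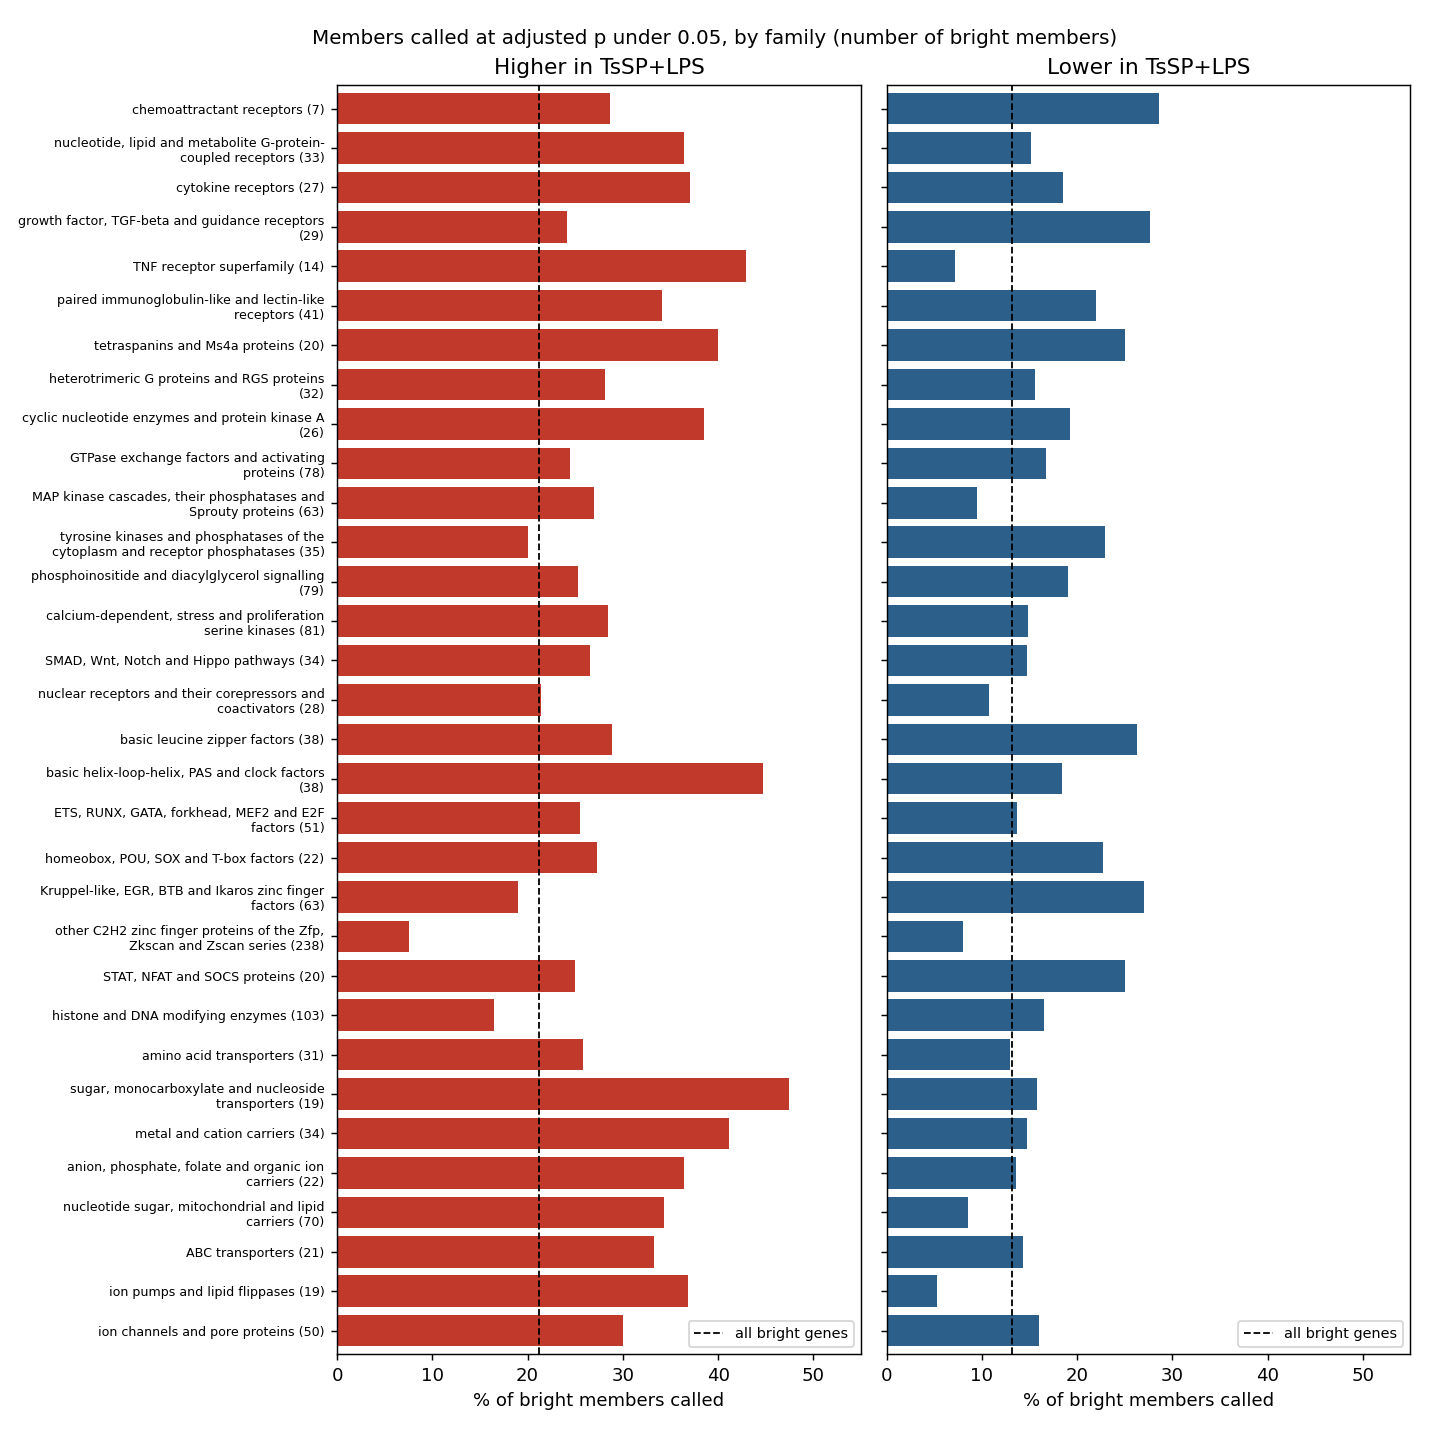
Percentage of the bright members of each of 32 gene families called higher (left, red) or lower (right, blue) in TsSP+LPS than in LPS cells at an adjusted p under 0.05, with the number of bright members in brackets. Dashed lines mark all bright genes, at 21.2% higher and 13.2% lower. Sugar, monocarboxylate and nucleoside transporters reach 47.4% higher, and the other C2H2 zinc finger proteins stay at 7.56% higher and 7.98% lower.

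Immunoglobulin-like and lectin-like receptors held both extremes of the receptor genes. Of 95 measured, 16 rose and 9 fell (34.1% and 22.0% of 41 bright members, median log2 difference 0.23), and after quantile normalization 10 rose and 10 fell. Slamf7, a homophilic receptor of leukocytes, had log2 signals of 10.18, 10.02 and 10.09 in TsSP+LPS cells, against 14.41, 14.71 and 14.42 in LPS cells, and fell 21.4-fold (log2 SE 0.15, adjusted p = 1.89e-08). Vsir, which encodes the checkpoint protein VISTA, a brake on T cell and myeloid activation, had 12.31, 12.18 and 12.25 in TsSP+LPS cells, against 8.91, 8.90 and 9.38 in LPS cells, and rose 9.07-fold (log2 SE 0.15, adjusted p = 1.25e-07). The arrays of these genes lay far apart, with LPS cells high for Slamf7 and TsSP+LPS cells high for Vsir. Rises were also found for Cd300lb, an activating receptor of the CD300 family, at 4.77-fold (log2 SE 0.27, adjusted p = 0.000139), and for Treml4, a relative of the TREM receptors, at 4.18-fold (log2 SE 0.25, adjusted p = 0.000139). Pirb, an inhibitory receptor for MHC class I, rose 3.04-fold, and Trem1, an amplifier of inflammatory signalling, 2.85-fold. Klrk1, the gene of the activating receptor NKG2D, had 7.26, 6.51 and 6.95 in TsSP+LPS cells, against 7.81, 9.53 and 8.79 in LPS cells, and fell 3.49-fold (log2 SE 0.41, adjusted p = 0.0089). Its LPS arrays were widely spread, but all were above the TsSP+LPS arrays. Slamf8 and Slamf9, which lie with Slamf7 in the SLAM family, fell 3.41-fold and 2.69-fold, and the sialic acid-binding receptor gene Siglec1 fell 2.28-fold. The bright Fc receptor genes Fcgr2b and Fcer1g did not pass, at log2 differences of 0.13 (adjusted p = 0.491) and 0.10 (adjusted p = 0.597).

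Slamf7 was the largest fall among the receptors, and the 250 bases before its RefSeq start are shown for the motifs they hold (chr1:171649000-171649249, GRCm38.p6, minus strand). Capitals mark ACGTG, the core of hypoxia response elements, at position -50 from the start, and an AP-1 site, TGANTCA, at -42. Motifs were searched on both strands, and 18.3% and 6.37% of 15691 promoters hold these letters.
Slamf7: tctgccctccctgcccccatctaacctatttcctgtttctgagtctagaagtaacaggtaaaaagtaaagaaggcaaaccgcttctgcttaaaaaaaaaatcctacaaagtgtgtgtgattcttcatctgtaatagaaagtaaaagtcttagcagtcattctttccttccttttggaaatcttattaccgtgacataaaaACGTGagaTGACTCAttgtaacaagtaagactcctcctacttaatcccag
The same window of Vsir held none of the 7 motifs searched.

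Receptors of the tumour necrosis factor family rose more often than they fell. Of 27 measured, 6 rose and 1 fell (42.9% and 7.14% of 14 bright members, median 0.38). Tnfrsf9, the costimulatory receptor 4-1BB, had log2 signals of 15.09, 15.28 and 15.28 in TsSP+LPS cells, against 12.07, 12.13 and 11.97 in LPS cells, and rose 8.94-fold (log2 SE 0.11, adjusted p = 1.89e-08). Relt had 8.19, 7.72 and 8.43 in TsSP+LPS cells, against 4.92, 5.96 and 5.69 in LPS cells, where it lay below background, and was at least 3.67-fold higher (log2 SE 0.38, adjusted p = 0.000508). "At least" marks here and below a gene that was not above background on every array of its dimmer group, whose level there is bounded by the background. Neither gene's groups overlapped. Tnfrsf22, Tnfrsf23 and Tnfrsf26, neighbouring genes of which the first and second encode decoy receptors for the death ligand TRAIL, rose 1.79-fold, 2.95-fold and 2.84-fold. The member that fell was Cd40, and 2 fell over genes above background alone and with an intensity trend. The receptors of TNF itself did not pass, Tnfrsf1a at a log2 difference of 0.029 (adjusted p = 0.928) and Tnfrsf1b at -0.25 (adjusted p = 0.255). Tnfrsf1b passed with an intensity trend in limma (adjusted p = 0.0244).

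Among 52 cytokine receptor genes 12 rose and 6 fell (37.0% and 18.5% of 27 bright members, median 0.19). Il6ra, the ligand-binding chain for interleukin-6, had 11.43, 11.04 and 11.06 in TsSP+LPS cells, against 8.04, 8.06 and 8.64 in LPS cells, and rose 7.61-fold (log2 SE 0.22, adjusted p = 3.69e-06). Il18rap, the accessory chain of the interleukin-18 receptor, rose 3.32-fold (log2 SE 0.28, adjusted p = 0.00099), and Il1r2, a decoy receptor for interleukin-1, was at least 2.36-fold higher. Il15ra, which presents interleukin-15 to neighbouring cells, had 8.31, 8.69 and 8.91 in TsSP+LPS cells, against 10.52, 10.14 and 10.81 in LPS cells, and fell 3.62-fold (log2 SE 0.24, adjusted p = 0.000231). Every TsSP+LPS array was above every LPS array for Il6ra and below every one for Il15ra. The growth hormone receptor gene Ghr fell 3.71-fold (log2 SE 0.16, adjusted p = 7.85e-06), the interleukin-23 receptor gene Il23r 2.55-fold and Crlf3, an orphan member of the family, 2.27-fold. The interleukin-10 receptor chain gene Il10ra fell 1.43-fold. Csf1r, the receptor of the macrophage growth factor, did not pass, at a log2 difference of 0.17 (adjusted p = 0.326).

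A list of 156 receptors of the G-protein-coupled kind took in those for lipids, nucleotides and metabolites and others, such as Adgre1 and Calcrl. Most were dim. Of the 156, 13 rose and 7 fell (36.4% and 15.2% of 33 bright members, median 0.16). Gpr35, for which the tryptophan metabolite kynurenic acid has been proposed as a ligand, had 10.34, 10.22 and 10.15 in TsSP+LPS cells, against 6.86, 7.32 and 7.29 in LPS cells, and rose 8.47-fold (log2 SE 0.19, adjusted p = 7.75e-07). S1pr1, a receptor for sphingosine-1-phosphate, had 10.96, 10.80 and 11.06 in TsSP+LPS cells, against 8.60, 9.04 and 8.64 in LPS cells, and rose 4.54-fold (log2 SE 0.17, adjusted p = 4.03e-06). Gpr183, the oxysterol receptor EBI2, had 8.12, 8.10 and 8.12 in TsSP+LPS cells, against 6.13, 5.81 and 6.19 in LPS cells. It was at least 3.67-fold higher, and all its LPS arrays lay below background. Hcar2, the receptor for niacin and the ketone body beta-hydroxybutyrate, had 12.40, 12.60 and 12.42 in TsSP+LPS cells, against 14.66, 14.56 and 14.53 in LPS cells, and fell 4.31-fold (log2 SE 0.11, adjusted p = 2.37e-07). None of the 4 genes had overlapping groups. The purine and pyrimidine receptors divided: P2ry6, which binds UDP, rose 2.46-fold and P2ry2, which binds ATP and UTP, 2.27-fold, while P2ry12, which binds ADP, fell 2.89-fold (log2 SE 0.23, adjusted p = 0.000556). Gpr146 was at least 2.23-fold higher, and the receptor gene Calcrl, of the calcitonin receptor group, fell 1.76-fold. The bright receptor gene Gpr84, for medium-chain fatty acids, did not pass, at -0.18 (adjusted p = 0.271, or 0.0223 with an intensity trend).

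Only 7 of 32 chemoattractant receptor genes were bright. The atypical receptor gene Ccrl2, which binds the attractant chemerin, had 14.37, 14.33 and 14.34 in TsSP+LPS cells, against 15.91, 15.87 and 15.89 in LPS cells, and fell 2.91-fold (log2 SE 0.12, adjusted p = 5.9e-06). Ptafr, the receptor for platelet-activating factor, fell 2.16-fold (log2 SE 0.11, adjusted p = 3.47e-05), and the groups overlapped for neither gene. Cxcr4 and Ccr2, chemokine receptors of leukocyte homing, rose 2.14-fold (adjusted p = 0.016) and 2.12-fold (adjusted p = 0.0281). Cxcr4 lost its call after quantile normalization and without TsSP+LPS replicate 1 or LPS replicate 2 or 3 (adjusted p = 0.0599 to 0.0616), and Ccr2 after quantile normalization and without TsSP+LPS replicate 1 or 3 or LPS replicate 1 or 2 (adjusted p = 0.0524 to 0.107). Ccr1 and Ccr3 were called higher and Ccr9 lower, but none of the 3 was above background on every array of either group, so that no fold is given. In all 4 rose and 3 fell (28.6% and 28.6% of 7 bright members, median -0.16), and 2 rose without TsSP+LPS replicate 1 or LPS replicate 2, after quantile normalization and over genes above background alone. The receptors for complement fragments, C3ar1 and C5ar1, did not pass, at log2 differences of -0.16 and -0.041 (adjusted p = 0.358 and 0.908), although C3ar1 did with an intensity trend (adjusted p = 0.0417).

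Of 88 growth factor, TGF-beta family and guidance receptor genes, 8 rose and 9 fell (24.1% and 27.6% of 29 bright members, median 0.13). Lrp8, a receptor for apolipoprotein E and reelin, had 10.75, 10.53 and 10.40 in TsSP+LPS cells, against 7.51, 7.85 and 7.96 in LPS cells, and rose 6.90-fold (log2 SE 0.17, adjusted p = 6.72e-07). Acvrl1, a type I receptor of the TGF-beta family known as ALK1, had 10.49, 10.90 and 10.66 in TsSP+LPS cells, against 8.31, 8.36 and 8.41 in LPS cells, and rose 5.00-fold (log2 SE 0.24, adjusted p = 3.77e-05). The activin receptor gene Acvr1b rose 2.38-fold. Both sides of the semaphorin receptors appeared: Plxna2 had 7.04, 7.57 and 6.72 in TsSP+LPS cells, against 8.77, 9.17 and 9.41 in LPS cells, and fell 4.02-fold (log2 SE 0.27, adjusted p = 0.000299), Plxnd1 fell 1.76-fold, and Plxnb2 rose 2.36-fold. Relatives of the low-density lipoprotein receptor were likewise divided, with Lrp1 and Lrp5 2.53-fold and 1.89-fold higher and Lrp11 and Lrp12 2.72-fold and 2.18-fold lower. The ephrin receptor gene Epha4 was at least 1.94-fold lower.

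Tetraspanins, membrane proteins that organise other proteins into patches, and the Ms4a family gave 8 rises and 5 falls among 46 members (8 and 5 of 20 bright members, median 0.24). Cd151 had 11.51, 11.58 and 11.71 in TsSP+LPS cells, against 9.75, 9.92 and 9.82 in LPS cells, and rose 3.40-fold (log2 SE 0.11, adjusted p = 1.03e-06). Tspan14, Tspan17 and Tspan5, of the group of tetraspanins that bind the sheddase ADAM10, rose 2.62-fold, 2.18-fold and 1.92-fold, and Tspan3 rose 2.27-fold. The 5 falls were all Ms4a genes. Ms4a4c had 11.34, 11.70 and 11.29 in TsSP+LPS cells, against 14.12, 13.78 and 13.90 in LPS cells, and fell 5.61-fold (log2 SE 0.15, adjusted p = 8.52e-07), Ms4a6c fell 2.94-fold, Ms4a7 1.95-fold and Ms4a6b 1.63-fold. Ms4a4d, also called lower, had overlapping groups and was not above background on every array of either. Ms4a6b lost its call after median-centring each array, with only the 6 arrays fitted and without TsSP+LPS replicate 2 or 3 or LPS replicate 1 or 3 (adjusted p = 0.0523 to 0.165), and Ms4a4d with only the 6 arrays fitted and without TsSP+LPS replicate 2 or 3 or LPS replicate 1 or 2 (adjusted p = 0.0845 to 0.143). The count of falls was 3 without TsSP+LPS replicate 2 or 3 and with only the 6 arrays fitted. Ms4a6d, the brightest member of that family named here without a call, stood at -0.24 (adjusted p = 0.189, or 0.0129 with an intensity trend), and probes for the closely related Ms4a6 genes may read one another.

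**Figure D2:**
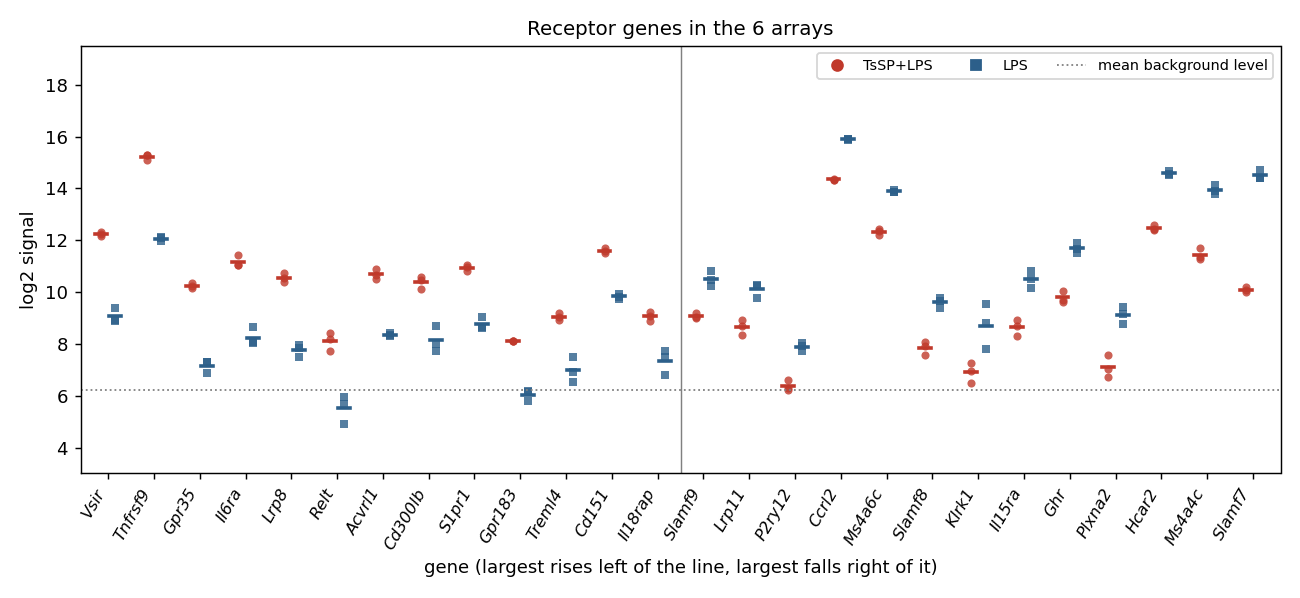
Log2 signal of receptor genes on each of the 6 arrays, TsSP+LPS as red circles on the left of each pair and LPS as blue squares on the right, with bars at the group means and a dotted line at the mean background level. The genes are receptors named in the text whose groups lie apart, the 13 largest rises left of the vertical line and the 13 largest falls right of it. Slamf7, at the far right, shows the widest gap.

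Downstream of the receptors, G-protein signalling genes gave 10 rises and 6 falls among 68 members (28.1% and 15.6% of 32 bright members, median 0.26). RGS proteins speed the switching off of G proteins, and a pair of them were among the largest falls. Rgs2 had log2 signals of 9.04, 9.32 and 8.59 in TsSP+LPS cells, against 12.47, 12.41 and 11.91 in LPS cells, and fell 9.71-fold (log2 SE 0.21, adjusted p = 1.07e-06). Rgs1 had 9.84, 8.96 and 9.62 in TsSP+LPS cells, against 12.76, 12.57 and 12.69 in LPS cells, and fell 9.18-fold (log2 SE 0.22, adjusted p = 1.84e-06). Rises were found for genes whose products shut off the receptors themselves. Arrb1, which encodes a beta-arrestin, had 10.21, 9.80 and 9.99 in TsSP+LPS cells, against 7.22, 7.94 and 7.22 in LPS cells, and rose 5.82-fold (log2 SE 0.24, adjusted p = 2.26e-05). The receptor kinase genes Grk6 and Grk5 rose 2.97-fold and 2.34-fold. The groups overlapped in none of these 5 genes. Of the G-protein subunits, Gngt2 rose 4.25-fold (log2 SE 0.24, adjusted p = 8.68e-05), Gna11 and Gna12 rose 1.60-fold and 1.71-fold, and Gna13, Gng11 and Gng12 fell 1.57-fold, 1.82-fold and 2.19-fold. Gnb1, a bright beta subunit gene, did not pass, at 0.12 (adjusted p = 0.498).

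Enzymes that make, break and read cyclic nucleotides numbered 70, of which 12 rose and 5 fell (38.5% and 19.2% of 26 bright members, median 0.36). Pde5a, which degrades cyclic GMP, had 8.77, 8.41 and 8.79 in TsSP+LPS cells, against 5.77, 6.31 and 5.98 in LPS cells, and was at least 5.32-fold higher (log2 SE 0.26, adjusted p = 3.1e-05). Pde2a, which degrades both cyclic nucleotides, rose 2.25-fold, the adenylyl cyclase gene Adcy7 2.10-fold, and the protein kinase A subunit gene Prkar2a 1.88-fold. The falls were those of Pde7b at 3.18-fold (log2 SE 0.21, adjusted p = 0.000221), Akap13, an anchor of protein kinase A, at 2.67-fold, Pde10a at 2.65-fold, and Pde4a and Pde4b, which degrade cyclic AMP, at 1.67-fold and 1.61-fold. Akap13 lost its call with only the 6 arrays fitted and without TsSP+LPS replicate 3 or LPS replicate 2 or 3 (adjusted p = 0.0521 to 0.0826), and Pde4a with only the 6 arrays fitted and without TsSP+LPS replicate 1, 2 or 3 or LPS replicate 2 or 3 (adjusted p = 0.054 to 0.147). With TsSP+LPS replicate 3 or LPS replicate 2 or 3 left out, or only the 6 arrays fitted, the falls numbered 3.

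The exchange factors that load small GTPases and the activating proteins that shut them off gave 22 rises and 14 falls among 141 genes (24.4% and 16.7% of 78 bright members, median 0.15). Rasgef1b, a Ras-family exchange factor, had 9.44, 9.64 and 9.18 in TsSP+LPS cells, against 13.68, 13.67 and 13.78 in LPS cells, and fell 19.6-fold. Sipa1l1, an activating protein for Rap GTPases, had 13.25, 13.05 and 12.98 in TsSP+LPS cells, against 9.93, 10.45 and 10.48 in LPS cells, and rose 6.99-fold (log2 SE 0.15, adjusted p = 3.93e-07). Plekhg3, an exchange factor gene, had 9.54, 9.50 and 9.49 in TsSP+LPS cells, against 5.84, 6.90 and 6.77 in LPS cells, and was at least 7.48-fold higher (log2 SE 0.26, adjusted p = 1.15e-05). Each of these genes kept its 2 groups apart. Sipa1l2 was at least 4.26-fold higher and Arhgap26 rose 2.95-fold. Arhgap22, an activating protein for Rac, fell 5.65-fold (log2 SE 0.17, adjusted p = 2.09e-06), the exchange factor gene Arhgef3 4.14-fold (log2 SE 0.14, adjusted p = 1.74e-06), Arap2 3.21-fold and Dock10 3.09-fold.

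Of 90 genes of the MAP kinase cascades and their phosphatases, 18 rose and 6 fell (27.0% and 9.52% of 63 bright members, median 0.26). The kinase gene Map4k4 had 12.72, 12.92 and 12.91 in TsSP+LPS cells, against 10.95, 11.00 and 11.08 in LPS cells, and rose 3.58-fold (log2 SE 0.12, adjusted p = 1.71e-06). Mknk2, whose product phosphorylates the translation factor eIF4E, rose 3.05-fold, and Map3k14, the kinase NIK of non-canonical NF-kB signalling, 2.94-fold (log2 SE 0.14, adjusted p = 1.29e-05). The scaffold gene Ksr1 was at least 1.92-fold higher. Dual-specificity phosphatases, many of which switch off MAP kinases, supplied most of the falls that were named: Dusp10 had 10.95, 10.93 and 10.81 in TsSP+LPS cells, against 12.39, 12.42 and 12.49 in LPS cells, and fell 2.90-fold (log2 SE 0.10, adjusted p = 1.84e-06), Dusp4 fell 2.63-fold, Dusp22 2.19-fold and Dusp8 2.11-fold. Dusp7 and Dusp3 rose 2.14-fold and 1.77-fold. Spred2, an inhibitor of the Ras pathway, rose 2.39-fold, and its relative Spred1 fell 1.57-fold.

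Tyrosine kinases and phosphatases gave 7 rises and 8 falls among 64 members (20.0% and 22.9% of 35 bright members, median 0.083). The receptor phosphatase gene Ptpro had 10.04, 10.01 and 9.88 in TsSP+LPS cells, against 11.97, 12.10 and 11.93 in LPS cells, and fell 4.07-fold (log2 SE 0.13, adjusted p = 1.19e-06), and Ptprg fell 3.96-fold (log2 SE 0.18, adjusted p = 1.75e-05). Ptpre and Ptprs rose 2.31-fold and 2.10-fold. Fes, Abl1 and the myeloid Src-family kinase gene Fgr rose 2.54-fold, 2.44-fold and 2.41-fold. Src itself fell 2.32-fold, Ptk2b, the kinase PYK2, 1.82-fold, and Tyk2, a JAK kinase of interferon and interleukin receptors, 1.65-fold. Ptprc and Ptpn6, the leukocyte phosphatases CD45 and SHP-1, did not pass, at 0.035 and 0.012 (adjusted p = 0.898 and 0.962).

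Phosphoinositide signalling genes, which write and erase phosphate marks on membrane lipids, gave 23 rises and 15 falls among 101 (25.3% and 19.0% of 79 bright members, median 0.072), with 15 rises without TsSP+LPS replicate 1 or LPS replicate 1. Inpp5d, which encodes the lipid phosphatase SHIP1, a brake on PI3 kinase signalling in blood cells, had 13.22, 13.16 and 13.19 in TsSP+LPS cells, against 11.11, 11.19 and 11.30 in LPS cells, and rose 3.97-fold (log2 SE 0.16, adjusted p = 5.54e-06). Inpp4b, another phosphatase of the same pathway, fell 2.66-fold (log2 SE 0.16, adjusted p = 9.36e-05). Pip5k1b, which makes the lipid on which PI3 kinase acts, had 5.95, 6.11 and 6.80 in TsSP+LPS cells, against 8.91, 8.72 and 8.61 in LPS cells, and was at least 5.11-fold lower (log2 SE 0.23, adjusted p = 1.73e-05). Its groups did not overlap. The PI3 kinase regulatory subunit genes differed, Pik3r2 rising 2.65-fold and Pik3r1 falling 1.77-fold. The protein kinase C gene Prkch rose 2.87-fold, Synj2 rose 2.74-fold, and Phlpp1, an Akt phosphatase, fell 2.76-fold. Prkcd did not pass, at -0.36 (adjusted p = 0.0621), though it did after median-centring, over genes above background alone and with an intensity trend (adjusted p = 0.000984 to 0.0393).

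Among 118 further serine kinases 27 rose and 12 fell (28.4% and 14.8% of 81 bright members, median 0.099). Plk2, a stress-responsive polo-like kinase, had 11.72, 11.52 and 11.71 in TsSP+LPS cells, against 14.57, 14.57 and 14.43 in LPS cells, and fell 7.33-fold (log2 SE 0.13, adjusted p = 1.11e-07). Camk2g, a calcium and calmodulin-dependent kinase, had 8.74, 8.65 and 8.73 in TsSP+LPS cells, against 6.52, 7.33 and 7.01 in LPS cells, and rose 3.38-fold (log2 SE 0.22, adjusted p = 0.000163), while its relative Camk2d fell 1.84-fold. Prkag2, a regulatory subunit of the energy sensor AMPK, was at least 3.02-fold higher (log2 SE 0.25, adjusted p = 0.000139). The pseudokinase gene Trib1 rose 2.96-fold and Trib3 fell 1.55-fold. Ripk3, the kinase of necroptosis, rose 2.59-fold (log2 SE 0.12, adjusted p = 1.15e-05). Stk38l fell 3.27-fold, Pim1, a kinase of cytokine-driven survival, 2.54-fold, and Dyrk2 2.49-fold, and Pim3 rose 1.58-fold.

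Plk2 was the largest fall among family members whose 250-base window holds the interferon response motif, GAAA repeated after a spacer of any 2 bases, and it is shown for that reason, chosen after the values were seen (chr13:110394794-110395043, GRCm38.p6, plus strand). Capitals mark that motif, here on the opposite strand, at -219, ACGTG on the opposite strand at -208 and the cyclic AMP response element TGACGTCA at -62.
Plk2: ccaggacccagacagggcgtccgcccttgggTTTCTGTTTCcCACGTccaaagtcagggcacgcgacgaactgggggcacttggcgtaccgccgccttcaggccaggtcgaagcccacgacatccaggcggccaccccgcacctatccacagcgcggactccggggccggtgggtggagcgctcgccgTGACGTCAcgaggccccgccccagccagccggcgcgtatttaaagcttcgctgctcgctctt
Of all 15691 promoters 3.03% hold the first and 2.06% the third. The other family members found to fall and hold the interferon motif were Kcnab1, Socs1, Slamf8, Slc37a1, Sgk1, Stat2, Gna13 and Pilrb1. For this list and the rank of Plk2, only members with groups apart and above background in the brighter group were searched. A chromosome was also left out, so the list may be incomplete, and its share among family members was not computed.

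STAT, NFAT and SOCS genes gave 5 rises and 6 falls among 24 (25.0% and 25.0% of 20 bright members, median 0.33). Cish, Socs1, Socs2 and Socs7, of the CIS and SOCS feedback inhibitors of cytokine signalling, fell. Cish had 4.55, 4.37 and 4.20 in TsSP+LPS cells, against 7.89, 7.69 and 7.80 in LPS cells, so that its LPS arrays were all well above the others. Socs1 had 8.31, 7.81 and 7.77 in TsSP+LPS cells, against 9.65, 9.79 and 9.84 in LPS cells, and fell 3.47-fold (log2 SE 0.24, adjusted p = 0.000272), and Socs7 fell 1.90-fold. Stat2, a component of the interferon-activated complex, fell 1.67-fold. Nfatc2, a calcium-regulated transcription factor, had 9.90, 9.69 and 9.66 in TsSP+LPS cells, against 7.46, 7.51 and 7.45 in LPS cells, and rose 4.84-fold (log2 SE 0.25, adjusted p = 6.56e-05). The other rises were those of Stat6, Pias3 at 1.83-fold, Socs3 at 1.29-fold and Stat3 at 1.27-fold. The call of Pias3 was lost after quantile normalization and without TsSP+LPS replicate 2 or 3 or LPS replicate 3 (adjusted p = 0.0657 to 0.0705), that of Socs3 after median-centring each array, with only the 6 arrays fitted and without TsSP+LPS replicate 1, 2 or 3 or LPS replicate 1, 2 or 3 (adjusted p = 0.0593 to 0.13) and that of Stat3 after median-centring each array, with only the 6 arrays fitted and without TsSP+LPS replicate 1, 2 or 3 or LPS replicate 1, 2 or 3 (adjusted p = 0.057 to 0.108). Without TsSP+LPS replicate 1 or any 1 LPS array 3 rises were counted, as with median-centring or the 6 arrays alone, against 2 without TsSP+LPS replicate 2 and 8 over genes above background alone. Nfatc3 and Nfat5 did not pass, at 0.042 and 0.31 (adjusted p = 0.89 and 0.364).

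In the SMAD, Wnt, Notch and Hippo pathways 13 of 142 genes rose and 10 fell (26.5% and 14.7% of 34 bright members, median 0.12), with 6 falls when only the 6 arrays were fitted. The Wnt receptors of the Frizzled family split. Fzd2 had 9.23, 9.03 and 8.83 in TsSP+LPS cells, against 7.56, 7.35 and 7.15 in LPS cells, and rose 3.19-fold (log2 SE 0.27, adjusted p = 0.00108), and Fzd7 rose 2.90-fold (log2 SE 0.17, adjusted p = 6.82e-05). Fzd5 had 7.34, 7.11 and 7.50 in TsSP+LPS cells, against 9.83, 9.98 and 9.70 in LPS cells, and fell 5.75-fold (log2 SE 0.16, adjusted p = 1.19e-06). In all 3 genes the groups were apart. The Notch ligand gene Dll1 had 4.79, 3.94 and 4.41 in TsSP+LPS cells, against 8.11, 7.62 and 7.19 in LPS cells, and was at least 2.75-fold lower (log2 SE 0.30, adjusted p = 2.02e-05), while Hes6, of the Hes family of Notch effectors, was at least 1.82-fold higher. The ligand gene Bmp2 was at least 2.00-fold lower, Tcf7l2, a transcription factor of Wnt signalling, fell 2.69-fold, and Ski, a repressor of SMAD proteins, rose 2.60-fold. Rbpj, the DNA-binding partner of Notch, and Tgfb1 did not pass, at 0.15 and 0.18 (adjusted p = 0.42 and 0.309).

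Basic helix-loop-helix factors had the highest share of rises among the transcription factor families, 44.7% of 38 bright members, with 18.4% lower and a median of 0.27. Of 83 measured, 17 rose and 7 fell. Lyl1, a factor of blood stem cells and progenitors, had 11.63, 11.68 and 11.28 in TsSP+LPS cells, against 8.31, 8.46 and 9.07 in LPS cells, and rose 7.55-fold (log2 SE 0.24, adjusted p = 7.85e-06). Bhlhe40 had 12.22, 11.97 and 11.73 in TsSP+LPS cells, against 9.00, 9.27 and 9.81 in LPS cells, and rose 6.12-fold (log2 SE 0.20, adjusted p = 4.15e-06), and its partner in clock repression Bhlhe41 rose 4.48-fold (log2 SE 0.21, adjusted p = 2.26e-05). All these arrays were higher in TsSP+LPS cells. The network of Max, the shared partner of Myc and of its antagonists, moved in several members. The antagonist gene Mnt had 9.03, 9.00 and 8.81 in TsSP+LPS cells, against 6.14, 6.34 and 6.63 in LPS cells, and was at least 5.96-fold higher (log2 SE 0.20, adjusted p = 5.54e-06). Mxi1 and Mxd4, 2 more antagonists, rose 5.82-fold and 3.28-fold, while Mxd1 fell 2.30-fold and Max itself 1.71-fold. Of the clock genes, Arntl, which encodes BMAL1, fell 1.65-fold and Cry2 was at least 2.32-fold higher. Arnt2, a relative of Arntl, rose 1.96-fold. Twist2 was at least 2.30-fold lower. Tcf4 did not pass, at -0.32 (adjusted p = 0.0626), though it did without LPS replicate 1, after median-centring, over genes above background alone and with an intensity trend (adjusted p = 0.000592 to 0.0433).

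Of 53 basic leucine zipper genes 12 rose and 10 fell (28.9% and 26.3% of 38 bright members, median 0.004). Batf2, an interferon-responsive partner of Jun proteins, had 12.31, 12.29 and 12.11 in TsSP+LPS cells, against 14.41, 14.42 and 14.41 in LPS cells, and fell 4.52-fold (log2 SE 0.12, adjusted p = 3.98e-07). Creb5 fell 3.49-fold (log2 SE 0.17, adjusted p = 2.11e-05), Mafk 2.47-fold, and Ddit3, the stress factor CHOP, 2.30-fold (log2 SE 0.12, adjusted p = 2.57e-05). The subunits of AP-1 divided, with Fosl1 3.04-fold (log2 SE 0.17, adjusted p = 5.5e-05) and Jund 2.01-fold higher beside Fos, and Junb 1.64-fold lower. Creb3l2, a factor of the secretory pathway, rose 2.99-fold (log2 SE 0.18, adjusted p = 9.36e-05), and Dbp, an output factor of the clock, was at least 2.45-fold higher. Nfe2l1 did not pass, at -0.056 (adjusted p = 0.786).

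Kruppel-like, EGR, BTB and Ikaros zinc finger genes had 12 rises and 18 falls among 120 (19.0% and 27.0% of 63 bright members, median -0.002). Klf10, an early gene of TGF-beta signalling, had 10.99, 10.47 and 10.73 in TsSP+LPS cells, against 7.57, 7.50 and 7.70 in LPS cells, and rose 8.81-fold (log2 SE 0.16, adjusted p = 2.21e-07). Egr1, an immediate early factor, had 7.11, 7.13 and 6.78 in TsSP+LPS cells, against 9.20, 9.96 and 9.34 in LPS cells, and fell 5.64-fold (log2 SE 0.26, adjusted p = 4.2e-05). The groups were apart in both. Klf4 and Klf6 fell 2.63-fold and 1.67-fold, and Klf16 and Klf7 rose 1.94-fold and 1.56-fold. Zbtb4 rose 4.32-fold (log2 SE 0.20, adjusted p = 2.42e-05), Zbtb1 2.39-fold (log2 SE 0.11, adjusted p = 1.51e-05) and the repressor gene Bcl6 2.07-fold, and Glis3 was at least 4.38-fold higher. Snai2, a repressor known from epithelial-mesenchymal transition, fell 2.82-fold (log2 SE 0.16, adjusted p = 6.49e-05) and Zbtb5 2.32-fold. The other C2H2 zinc finger genes, mostly of the Zfp series, had the lowest share of bright members called of the 33 families, with 23 rises and 21 falls among 382 and a median of 0.003. After quantile normalization they gave 15 rises and 42 falls, and over genes above background alone 35 falls. Without TsSP+LPS replicate 1 or LPS replicate 1 the rises numbered 15, and without TsSP+LPS replicate 3, or with only the 6 arrays fitted, the falls numbered 13. Zfp618 stood out among them, with 9.88, 9.33 and 9.55 in TsSP+LPS cells, against 6.65, 6.47 and 6.79 in LPS cells, and rose 7.72-fold (log2 SE 0.17, adjusted p = 6.48e-07), and Zfp811 was at least 4.35-fold lower.

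ETS, RUNX, forkhead, MEF2 and E2F factors gave 16 rises and 7 falls among 102 (25.5% and 13.7% of 51 bright members, median 0.17). Foxn3, a forkhead repressor, had 8.64, 8.19 and 8.54 in TsSP+LPS cells, against 10.34, 10.37 and 10.82 in LPS cells, and fell 4.16-fold (log2 SE 0.16, adjusted p = 4.74e-06). Runx3 had 7.37, 6.98 and 7.00 in TsSP+LPS cells, against 3.80, 4.58 and 4.59 in LPS cells, where it lay below background, and was at least 1.84-fold higher (log2 SE 0.22, adjusted p = 5.81e-06). Its relative Runx1 fell 1.54-fold, a call that was lost with only the 6 arrays fitted and without TsSP+LPS replicate 3 (adjusted p = 0.0502 to 0.0594). The cell-cycle factor gene E2f2 was at least 3.70-fold higher (log2 SE 0.18, adjusted p = 5.4e-06), the ETS factor gene Etv1 at least 4.09-fold, and Etv5 rose 2.98-fold, as did the ETS repressor gene Erf, at 3.21-fold (log2 SE 0.14, adjusted p = 1.06e-05). Mef2d rose 1.84-fold and Mef2c fell 1.51-fold. Spi1, which encodes PU.1, the factor of myeloid identity, did not pass, at 0.13 (adjusted p = 0.463).

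Homeobox, LIM, SOX and T-box genes were mostly dim, with 22 bright of 139, and 7 rose and 8 fell (27.3% and 22.7% of 22 bright members, median 0.056), with 5 falls over genes above background alone. Zeb1, a repressor known from epithelial-mesenchymal transition, had 11.23, 10.95 and 10.77 in TsSP+LPS cells, against 12.45, 12.78 and 12.56 in LPS cells, and fell 3.06-fold (log2 SE 0.16, adjusted p = 2.75e-05). Lmo2 and Ldb1 encode a LIM-domain protein and its binder, which join Lyl1 or its relatives in one complex in blood progenitors. Lmo2 fell 2.99-fold (log2 SE 0.14, adjusted p = 1.1e-05), Ldb1 rose 2.33-fold (log2 SE 0.15, adjusted p = 0.000195), and Lyl1 rose as given above. Pbx2, Pknox1 and Hoxc4, homeobox genes, rose 1.98-fold, 1.90-fold and 2.21-fold, and the T-box gene Tbx20 fell 2.44-fold.

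Nuclear receptors and their cofactors gave 7 rises and 5 falls among 56 (21.4% and 10.7% of 28 bright members, median -0.096), or 4 and 3 without TsSP+LPS replicate 2. After quantile normalization the balance turned to 4 rises and 10 falls, and the falls numbered 9 over genes above background alone and with an intensity trend. Nr2f6, an orphan receptor that represses transcription, had 7.30, 7.32 and 7.60 in TsSP+LPS cells, against 4.89, 5.12 and 5.37 in LPS cells, and was at least 2.25-fold higher (log2 SE 0.20, adjusted p = 1.02e-05). Rxra, the shared partner of many nuclear receptors, was at least 1.54-fold higher, and Nr2c2 rose 1.65-fold. The orphan receptor gene Nr4a2, an early gene of stimulated macrophages, had 9.34, 8.57 and 8.89 in TsSP+LPS cells, against 9.79, 10.10 and 10.18 in LPS cells, and fell 2.13-fold (log2 SE 0.18, adjusted p = 0.00137), and its relative Nr4a3 was at least 1.13-fold lower. The coactivator genes Ncoa5 and Ncoa7 fell 1.66-fold and 1.54-fold, and Esr1, the oestrogen receptor, was called lower but was above background on only 1 of the 6 arrays. Ncoa7 lost its call without TsSP+LPS replicate 1 or 2 or LPS replicate 1 or 2 (adjusted p = 0.0806 to 0.113), and Esr1 with only the 6 arrays fitted and without TsSP+LPS replicate 2 or 3 or LPS replicate 1, 2 or 3 (adjusted p = 0.0589 to 0.118).

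Histone and DNA modifying enzymes gave 18 rises and 17 falls among 120 (16.5% and 16.5% of 103 bright members, median 0.053), with 11 falls without TsSP+LPS replicate 3 or with only the 6 arrays fitted. Histone demethylases led the rises. Kdm5b, which removes activating methyl marks, had 10.04, 9.72 and 9.48 in TsSP+LPS cells, against 7.39, 7.42 and 7.40 in LPS cells, and rose 5.09-fold (log2 SE 0.15, adjusted p = 1.19e-06). Kdm7a rose 2.62-fold (log2 SE 0.13, adjusted p = 2.4e-05), Jmjd6, another oxygen-dependent enzyme, 2.53-fold (log2 SE 0.12, adjusted p = 1.29e-05), and Kdm3a 2.30-fold. Within the Kdm4 demethylases, Kdm4b rose 1.87-fold and Kdm4a and Kdm4c fell 1.68-fold and 1.60-fold. Smyd1, a methyltransferase best known from muscle, had 5.66, 5.63 and 4.92 in TsSP+LPS cells, against 8.36, 8.47 and 8.68 in LPS cells, and was at least 5.00-fold lower (log2 SE 0.28, adjusted p = 1.51e-05). The histone methyltransferase gene Dot1l and the DNA methyltransferase gene Dnmt3a fell 2.12-fold and 1.99-fold, and Hat1, a histone acetyltransferase gene, 1.93-fold. Brd2, a reader of acetylated histones, did not pass, at 0.01 (adjusted p = 0.97).

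**Figure D3:**
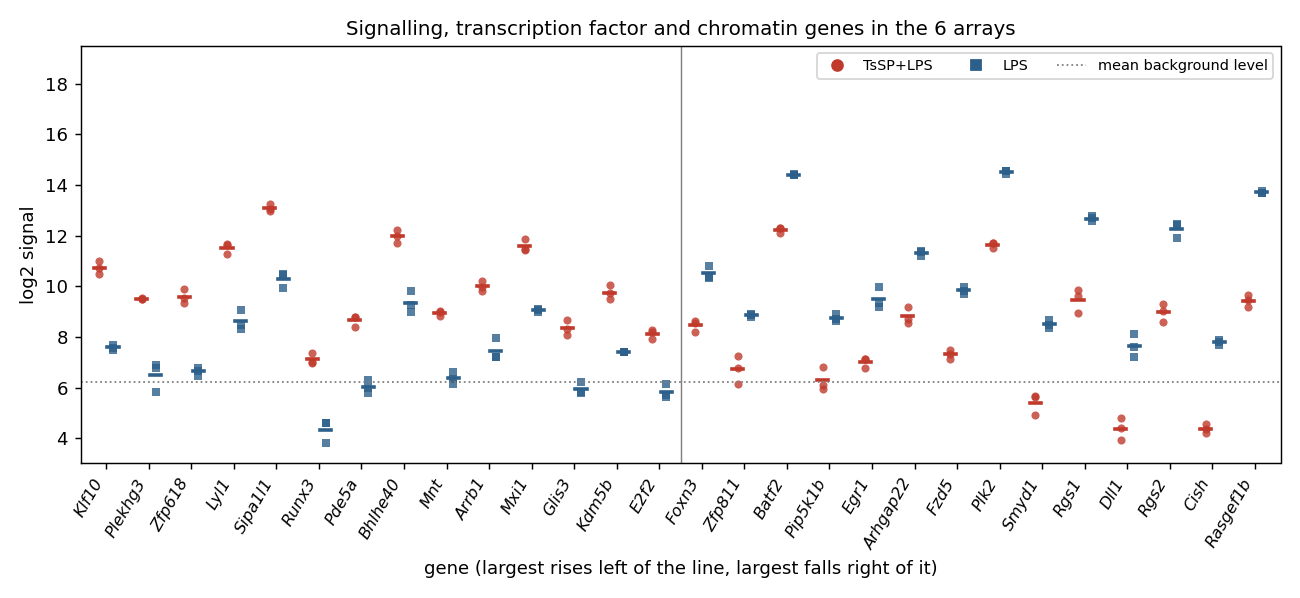
Log2 signal of signalling, transcription factor and chromatin enzyme genes on each of the 6 arrays, TsSP+LPS as red circles on the left of each pair and LPS as blue squares on the right, with bars at the group means and a dotted line at the mean background level. The genes are those named in the text whose groups lie apart, the 14 largest rises left of the vertical line and the 14 largest falls right of it. Cish, Dll1 and Smyd1 lie below background on the TsSP+LPS arrays and Runx3 on the LPS arrays.

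Promoter letters were compared between the genes that rose and fell as a description. The sets of genes that rose and fell included dim genes. Those that differed over 2-fold, like the genes not called, were bright genes alone, so the sets are not alike in brightness. The interferon response motif stood in 2.55% of the 250-base windows of 1767 genes that rose, 7.85% of 1108 that fell, and 2.16% of 4854 bright genes that were not called. Among genes that differed over 2-fold it stood in 2.51% of those that rose and 11.1% of those that fell. The NF-kB motif, GGG and TTTCC with any 2 bases between them, stood in 1.02% of genes that rose and 2.44% that fell, against 1.40% of bright genes not called, and in 1.26% of 478 genes that rose over 2-fold and 4.46% of 314 that fell over 2-fold. The family members found to fall with that motif, under the limits given for the interferon motif list, were Akap13, Il23r, Zbtb21 and Hivep2. Their share among family members was not computed. The E-box CACGTG stood in 8.94% of genes that rose and 7.85% that fell, against 8.90% of bright genes not called, and ACGTG in 24.2% and 20.4%, against 22.6%. AP-1 letters stood in 4.75% and 5.87%, against 4.00%, and TGACGTCA in 2.04% and 2.71%, against 3.34%. Over 2-fold, ACGTG stood in 25.1% of genes that rose and 16.6% that fell, and the E-box in 9.62% and 6.05%. AP-1 letters stood in 4.81% and 7.96% of these, and TGACGTCA in 1.46% and 2.87%. The STAT motif TTCNNNGAA stood in 4.92% and 8.12%, against 6.26%, but among genes that differed over 2-fold in 5.65% that rose and 6.37% that fell. A match of letters does not show that a factor binds there.

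Sugar, monocarboxylate and nucleoside transporters had the highest share of rises of any of the 33 families, with 11 rises and 3 falls among 51 (47.4% and 15.8% of 19 bright members, median 0.48). The rises numbered 7 without TsSP+LPS replicate 3 and with only the 6 arrays fitted. Slc37a4, which carries glucose-6-phosphate into the endoplasmic reticulum, had 10.24, 10.04 and 9.63 in TsSP+LPS cells, against 7.77, 7.87 and 7.50 in LPS cells, and rose 4.76-fold (log2 SE 0.26, adjusted p = 8.3e-05). The lactate and pyruvate carrier gene Slc16a1 had 13.65, 13.65 and 13.63 in TsSP+LPS cells, against 11.61, 12.12 and 11.96 in LPS cells, and rose 3.35-fold (log2 SE 0.14, adjusted p = 4.98e-06). Slc2a1, the glucose transporter GLUT1, had 17.44, 17.27 and 17.36 in TsSP+LPS cells, against 15.92, 15.88 and 16.05 in LPS cells, and rose 2.65-fold (log2 SE 0.11, adjusted p = 4.39e-06). All 3 genes had every TsSP+LPS array above every LPS array. Slc16a13 and Slc16a6 rose 2.27-fold and 2.01-fold. The nucleoside carrier gene Slc28a2 had 7.99, 7.59 and 7.96 in TsSP+LPS cells, against 9.99, 9.86 and 10.05 in LPS cells, and fell 4.36-fold (log2 SE 0.20, adjusted p = 2.43e-05), Slc37a1 fell 2.08-fold, and Slc2a6, a lysosomal hexose carrier gene, 1.30-fold. Slc2a6 lost its call with only the 6 arrays fitted and without TsSP+LPS replicate 1, 2 or 3 or LPS replicate 1 or 3 (adjusted p = 0.0655 to 0.0949). Slc2a3, the glucose transporter GLUT3, did not pass, at -0.035 (adjusted p = 0.936).

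Metal and cation carriers gave 15 rises and 6 falls among 54 (41.2% and 14.7% of 34 bright members, median 0.28). Within the ZIP family, which brings zinc and other metals into the cytosol, Slc39a2 moved against the rest of those called. It had 6.90, 6.74 and 6.38 in TsSP+LPS cells, against 9.50, 9.63 and 9.40 in LPS cells, and fell 7.16-fold (log2 SE 0.19, adjusted p = 1.77e-06). Slc39a14 had 12.32, 12.14 and 12.26 in TsSP+LPS cells, against 10.60, 10.38 and 10.58 in LPS cells, and rose 3.28-fold (log2 SE 0.15, adjusted p = 1.52e-05). Slc39a10 had 8.65, 8.58 and 8.50 in TsSP+LPS cells, against 6.75, 6.91 and 7.11 in LPS cells, and rose 3.15-fold (log2 SE 0.18, adjusted p = 6.65e-05). Slc39a4 and Slc39a13 rose 2.19-fold and 1.74-fold, while Slc39a6 did not pass, at 0.15 (adjusted p = 0.414). The groups were apart in each of the 5 called genes named. The zinc exporter gene Slc30a1 fell 1.63-fold and Slc40a1, which encodes the iron exporter ferroportin, 1.62-fold. Slc8b1, the sodium-calcium exchanger of mitochondria, rose 2.38-fold (log2 SE 0.13, adjusted p = 3.92e-05).

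Of 69 amino acid transporter genes 9 rose and 5 fell (25.8% and 12.9% of 31 bright members, median -0.024). The falls numbered 8 after median-centring and over genes above background alone, and 9 with an intensity trend. Slc66a1, which exports cationic amino acids from lysosomes, had 10.90, 10.22 and 10.32 in TsSP+LPS cells, against 9.00, 9.33 and 8.96 in LPS cells, and rose 2.61-fold (log2 SE 0.21, adjusted p = 0.000616). Its relative Slc66a2 rose 2.57-fold, the neutral amino acid carrier gene Slc43a2 2.12-fold, the cystine importer gene Slc7a11 2.04-fold, and the lysosomal carrier gene Slc36a1 1.79-fold. Carriers of the plasma membrane made up the falls: Slc1a4, for small neutral amino acids, had 9.18, 9.07 and 9.19 in TsSP+LPS cells, against 10.36, 10.59 and 10.54 in LPS cells, and fell 2.55-fold (log2 SE 0.17, adjusted p = 0.000224), Slc16a10, for aromatic ones, fell 2.27-fold (log2 SE 0.12, adjusted p = 4.2e-05), Slc7a1, for cationic ones, 1.72-fold, and Slc7a5, for large neutral ones, 1.56-fold. The fifth call, Slc7a3, was below background in both groups and was lost after quantile normalization and without TsSP+LPS replicate 1, 2 or 3 or LPS replicate 1 or 3 (adjusted p = 0.0651 to 0.16). Slc3a2, the partner chain of Slc7a5 and Slc7a11, did not pass, at -0.11 (adjusted p = 0.535).

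Carriers of anions, vitamins and organic ions gave 9 rises, 5 without TsSP+LPS replicate 2, and 3 falls among 105 (36.4% and 13.6% of 22 bright members, median 0.35). The thiamine carrier gene Slc19a2 had 9.38, 9.34 and 8.97 in TsSP+LPS cells, against 7.46, 7.35 and 7.56 in LPS cells, and rose 3.42-fold (log2 SE 0.18, adjusted p = 3.33e-05). Slc22a4, a carrier of ergothioneine, had 9.67, 9.54 and 9.68 in TsSP+LPS cells, against 7.84, 8.19 and 7.79 in LPS cells, and rose 3.23-fold (log2 SE 0.16, adjusted p = 2.38e-05). The lysosomal sialic acid exporter gene Slc17a5 rose 2.39-fold. Those that fell were the urea channel gene Slc14a1, at 2.91-fold (log2 SE 0.14, adjusted p = 1.51e-05), Slc13a1, a sulfate carrier gene, at least 2.65-fold lower, and Slc23a2, an ascorbate carrier gene, at 1.48-fold. Of 114 nucleotide sugar, mitochondrial and lipid carrier genes 26 rose and 8 fell (34.3% and 8.57% of 70 bright members, median 0.30), with 17 rises without TsSP+LPS replicate 1 or LPS replicate 3 and 5 falls without TsSP+LPS replicate 2 or 3 or LPS replicate 2, or 17 and 4 with only the 6 arrays fitted. The choline carrier gene Slc44a1 had 9.21, 9.10 and 9.19 in TsSP+LPS cells, against 7.46, 6.89 and 7.71 in LPS cells, and rose 3.50-fold (log2 SE 0.22, adjusted p = 0.000136), and Slc27a4, for fatty acids, rose 2.42-fold. The mitochondrial glutamate carrier gene Slc25a22 fell 2.84-fold (log2 SE 0.17, adjusted p = 6.56e-05) and Slc25a25, a calcium-regulated carrier of ATP, 2.86-fold (log2 SE 0.22, adjusted p = 0.000502). The bright mitochondrial carriers of ADP and ATP and of phosphate, Slc25a5 and Slc25a3, did not pass, at 0.16 and 0.11 (adjusted p = 0.332 and 0.587).

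ABC transporters gave 8 rises and 3 falls among 51 (33.3% and 14.3% of 21 bright members, median 0.20). Abca1, which loads cholesterol onto apolipoproteins, had 13.29, 13.23 and 13.48 in TsSP+LPS cells, against 9.96, 10.18 and 10.86 in LPS cells, and rose 8.00-fold (log2 SE 0.20, adjusted p = 1.39e-06), the largest rise of any transporter gene called. Abcc4, an exporter of cyclic nucleotides and prostaglandins, had 10.52, 10.60 and 10.35 in TsSP+LPS cells, against 8.72, 8.45 and 8.96 in LPS cells, and Abcb6, a porphyrin carrier gene, rose 2.24-fold. The falls were those of Abcg1 and of Tap1 and Tap2, the peptide pump of antigen presentation, at 1.51-fold and 1.54-fold. The 250 bases before the RefSeq start of Abca1 are shown because it rose most among the transporters (chr4:53159896-53160145, GRCm38.p6, minus strand). Capitals mark an E-box, CACGTG, at -147, which 6.88% of all promoters hold, and which also reads as ACGTG on both strands.
Abca1: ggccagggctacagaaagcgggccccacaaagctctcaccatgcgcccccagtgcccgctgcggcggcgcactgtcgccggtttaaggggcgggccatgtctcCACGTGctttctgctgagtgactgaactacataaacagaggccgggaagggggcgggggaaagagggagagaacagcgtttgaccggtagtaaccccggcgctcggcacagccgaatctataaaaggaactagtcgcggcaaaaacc
The windows of Slc39a2, the largest fall among the transporters, and of Zfp618 and Zfp811 held none of the 7 motifs.

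Ion pumps and lipid flippases gave 9 rises and 2 falls among 52 (36.8% and 5.26% of 19 bright members, median 0.18), or 5 rises without TsSP+LPS replicate 3, after median-centring and with only the 6 arrays fitted, and 1 fall without TsSP+LPS replicate 1 or 3 or LPS replicate 2 and over genes above background alone. The lysosomal pump gene Atp13a2 and the flippase gene Atp11a rose 2.37-fold and 2.28-fold, and Atp2a2, the calcium pump of the endoplasmic reticulum, 1.65-fold. The lipid scramblase genes differed, Ano6, of the calcium-activated kind, rising 1.65-fold and Xkr8, of the caspase-activated kind, falling 1.65-fold. Atp10a was called lower below background in both groups, a call lost without TsSP+LPS replicate 1 or 3 or LPS replicate 2 (adjusted p = 0.0597 to 0.0972). Ion channels and pore proteins gave 21 rises and 9 falls among 257, of which 50 were bright (15 and 8 of these called, median 0.20). Gja1, which encodes the gap junction protein connexin-43, had 9.85, 9.88 and 9.92 in TsSP+LPS cells, against 7.89, 7.99 and 7.65 in LPS cells, and rose 4.12-fold (log2 SE 0.17, adjusted p = 6.61e-06). Kcnab1, an auxiliary subunit of potassium channels, had 6.89, 6.57 and 7.01 in TsSP+LPS cells, against 9.39, 9.10 and 9.22 in LPS cells, and fell 5.32-fold (log2 SE 0.24, adjusted p = 3.46e-05), whereas Kcnab2 rose 2.19-fold. The sensors of endoplasmic reticulum calcium divided in the same way, Stim1 rising 2.32-fold and Stim2 falling 2.82-fold (log2 SE 0.13, adjusted p = 1.1e-05). Among chloride carriers of endosomes and lysosomes, Clcn3 and Clcn5 rose 2.41-fold and 1.85-fold, and Clcn7 fell 2.59-fold (log2 SE 0.12, adjusted p = 8.63e-06). The endolysosomal cation channel genes Tpcn2 and Tpcn1 were 2.56-fold and at least 2.29-fold higher, and the mechanosensitive channel gene Piezo1 fell 2.04-fold. Of the volume-regulated anion channel subunits, Lrrc8a rose 1.67-fold, Lrrc8c fell 2.38-fold, and Lrrc8d did not pass, at -0.13 (adjusted p = 0.541).

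**Figure D4:**
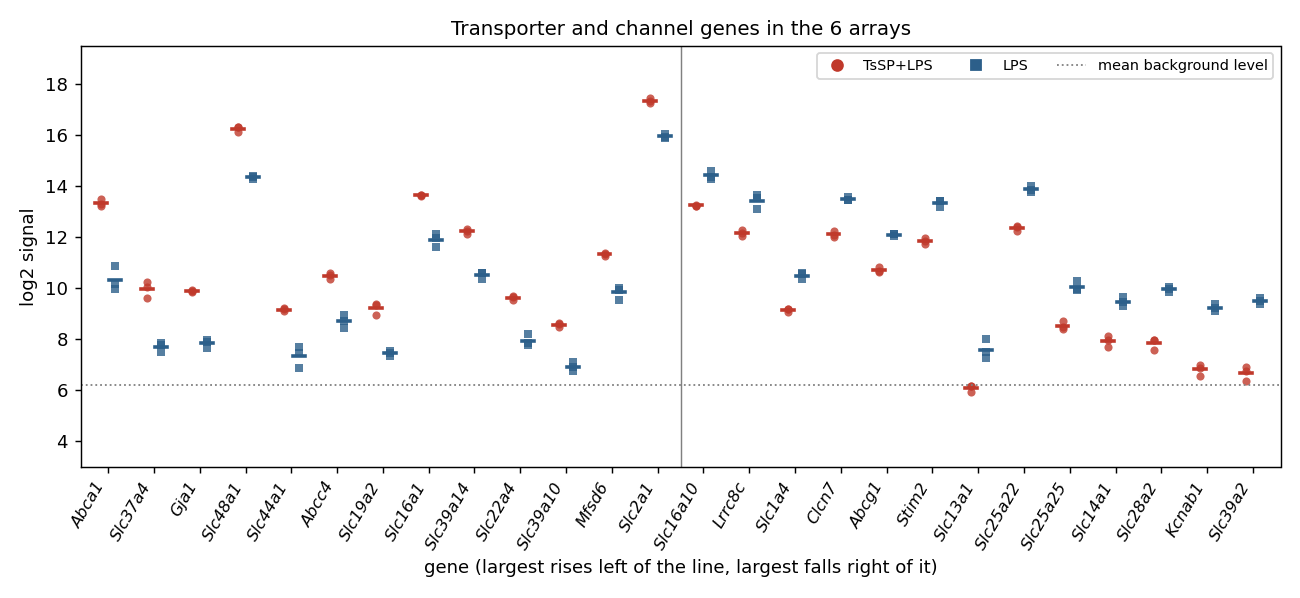
Log2 signal of transporter and channel genes on each of the 6 arrays, TsSP+LPS as red circles on the left of each pair and LPS as blue squares on the right, with bars at the group means and a dotted line at the mean background level. The genes are taken from those with the largest calls in each family whose groups lie apart, the 13 largest rises left of the vertical line and the 13 largest falls right of it. Slc2a1 is the brightest, and Slc39a2 shows the widest gap on the right.

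Outside these families, the 30 largest rises and falls held further genes of signalling and defence. Nek6, a kinase of mitosis, had 13.21, 12.95 and 13.01 in TsSP+LPS cells, against 9.73, 9.91 and 9.74 in LPS cells, and rose 9.58-fold (log2 SE 0.14, adjusted p = 6.71e-08). Rassf2, a Ras-binding adaptor, rose 8.56-fold (log2 SE 0.12, adjusted p = 3.75e-08), Abi3, a regulator of actin branching, 7.88-fold (log2 SE 0.21, adjusted p = 2.17e-06), and Nmrk1, a nicotinamide riboside kinase of NAD synthesis, 8.16-fold (log2 SE 0.36, adjusted p = 0.000128). Marchf1, a ubiquitin ligase that removes MHC class II from the surface, was at least 2.20-fold higher and the adhesion adaptor gene Bcar1 at least 1.51-fold. Cyria, which encodes an inhibitor of Rac-driven actin assembly, had 9.44, 9.94 and 9.58 in TsSP+LPS cells, against 12.77, 12.47 and 12.49 in LPS cells, and fell 7.57-fold (log2 SE 0.14, adjusted p = 1.77e-07). Tagap, a GTPase-activating protein gene of lymphocytes and myeloid cells, fell 6.83-fold (log2 SE 0.21, adjusted p = 4.38e-06), and Tnfsf15, a cytokine of the TNF family, 6.81-fold (log2 SE 0.14, adjusted p = 2.03e-07). The chemokine gene Ccl20 was at least 5.66-fold lower, and Calhm6, an ion channel gene of the calcium homeostasis modulator family, at least 3.38-fold. Sprr2b, Sprr2f, Sprr2g and Sprr2i were also among the 30 rises, but this family is near-identical and which member was measured is uncertain.

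The 6 arrays with inulin gave the same contrast on separate samples, Inulin+TsSP+LPS minus Inulin+LPS, where 16.7% of all genes were called. Of 433 family members that were higher in TsSP+LPS than in LPS cells, 424 had a difference of the same sign in the inulin arrays and 312 were called higher there. Of 255 that were lower, 253 had the same sign and 218 were called lower. Those with the opposite sign were Aqp11, Camk4, Cebpe, Fxyd6, Notch3, Slc25a15, Slc25a42, Slc6a13 and Zfp459 among the members that rose and Hes5 and Rgs6 among those that fell. Over all genes, family members included, 2088 of 2144 higher and 1331 of 1381 lower genes had the same sign. Of all genes, 1420 of 2144 higher genes (66.2%, or 84.1% of the 1689 higher in the inulin arrays) and 1101 of 1381 lower genes (79.7%, or 70.6% of 1559) were called the same way in both. A single gene, Aanat, was called in opposite directions, with every group below background. A test of the difference between the 2 TsSP effects in limma called 0 genes, with 1089 at an unadjusted p under 0.05. Among genes above background in at least 1 group, the smallest p in that test belonged to Ube2t, whose log2 difference was -0.27 in the arrays with inulin and 1.23 in those without it (difference of the 2, -1.50, SE 0.25, adjusted p = 0.646). In the positive direction it belonged to Sh3tc1, whose log2 difference was 0.27 in the arrays with inulin and -0.47 in those without it (difference of the 2, 0.74, SE 0.17, adjusted p = 0.803).

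**Figure D5:**
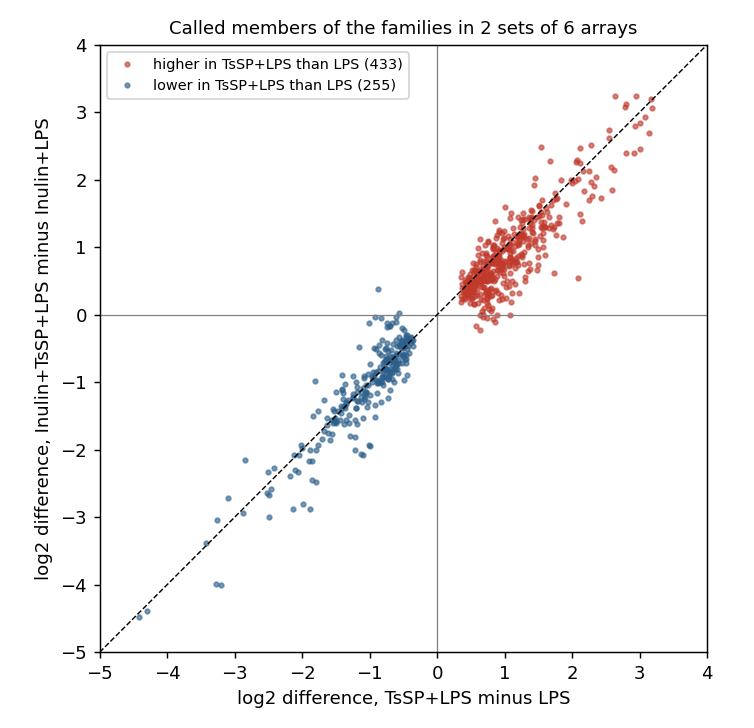
Log2 difference of the 688 called family members in the arrays without inulin (horizontal axis, TsSP+LPS minus LPS) and with inulin (vertical axis, Inulin+TsSP+LPS minus Inulin+LPS), red for genes higher and blue for genes lower in TsSP+LPS cells, with a dashed line of equal differences. Of the 433 red points 424 lie above 0 on the vertical axis, and of the 255 blue points 253 lie below it.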

How the data were processed

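Biotin-labelled RNA of the 12 samples was hybridised to Affymetrix mouse arrays, per the labels' protocols. The authors deposited 1 log2 value per probe set and array; the log base is inferred from the range of values (1.32 to 18.94), and their background correction and normalization were not given in the sources used here. Array number limits the precision, as 3 arrays stand in each group.

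Of 28846 probe sets, 19572 carried 1 gene symbol, giving 19505 genes, and for the 55 genes with several probe sets the one with the highest mean over the 12 arrays was kept. The background level of an array was the brightest of its 23 background probes, 6.16 to 6.28. The deposited values were fitted without further scaling in limma 3.58.1 (R 4.3.3), with a mean for each of 4 groups over all 12 arrays and Benjamini-Hochberg adjustment over all genes. The fit was tested on simulated data. Where a gene was not above background on every array of its dimmer group, those values were raised to the background level and the fold is a bound ("at least"); genes dim in both groups have none.

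The families and their members were chosen with earlier results of these data known. In each family, up to 5 largest rises and falls past the threshold with non-overlapping groups, all called members where a direction held 5 or fewer, the 2 brightest uncalled members, opposite-moving namesakes and the 30 largest changes each way over all genes were open to naming. The counts of 1 of the 33 families are not reported here. Promoters are from RefSeq on GRCm38.p6. Alternatives were quantile normalization, median-centring, the 6 arrays alone, a filter on dim genes, an intensity trend, the mean over probe sets, the replicate number as a block, and leaving out each array. Plots were made in Python 3.11.15 (matplotlib 3.10.9).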

Additional observations from a re-analysis of the deposited data

Results flagged for a closer look

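The comparisons used genes with a symbol, and signal was also found in the transcript clusters that carry none. Of 2615 such clusters, 188 were called higher in TsSP+LPS than in LPS cells and 116 lower in limma after Benjamini-Hochberg adjustment. Both shares were smaller than among the 19505 genes with a symbol, of which 11.0% were called higher and 7.08% lower. Of those called higher, 168 were above background on all 3 TsSP+LPS arrays, and of those called lower, 91 were above background on all 3 LPS arrays. These clusters were not followed further.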

How the results depend on the processing

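Calls of single genes were followed through the 13 alternatives for a picked set. It came from each family, the largest changes over all genes and the test between the TsSP effects. Some of its genes, such as Rara and Rhou, are not named above. Genes named above only as opposite-moving namesakes, such as P2ry2, Gna11, Gna12 and Lrp5, were not in it. Whether their calls hold was not tested. Of 359 genes of the set that were called, 327 kept their call in each of the 13 alternatives and 32 lost it in at least 1. None of the 359 turned direction in an alternative. The 5557 values computed also cover genes of the set without a call, and for those no statement on direction is made. Against 2144 genes higher and 1381 lower, quantile normalization gave 1757 and 1574 and median-centring 1890 and 1532, so that 52.7% and 55.2% of calls were higher in place of 60.8%. The filter on dim genes gave 2622 and 1569, an intensity trend 2645 and 1638, the 6 arrays alone 1621 and 1067, and the mean over probe sets 2145 and 1384. Leaving out 1 array gave 1671 to 1845 higher and 1082 to 1369 lower genes. The chromatin enzymes that fell numbered 17, 11 with only the 6 arrays, where the cause was not tested, and 11 to 16 with 1 array left out, the lowest without TsSP+LPS replicate 3. Over the families, 66 of 858 counts moved by more than 1.5 times. Replicate numbers did not pair the arrays: same-numbered arrays had deviations that correlated at 0.005, -0.002 and -0.009, and with the replicate block 1946 genes were higher and 1257 lower. Of the genes named above that were in the picked set, Esr1, Ms4a6b, Pde4a, Slc2a6, Slc7a3 and Stat3 also lost their calls with the block (adjusted p = 0.0557 to 0.0768 in limma). Genes near background have only bounded folds, and 3 arrays a group limit what small differences can be called.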
